A study of Rattus norvegicus with 12 samples.

Results

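The genes described here encode the proteins of the cytosolic ribosome, the particle that translates messenger RNA. They were followed through an immunoprecipitation of Staufen2 from embryonic rat brain. A probe was taken as a member where its symbol was that of a large (Rpl) or small (Rps) subunit protein, or where its definition line named ribosomal protein L or S with a number, leaving out mitochondrial ribosomal proteins and ribosomal protein kinases. This gave 571 of the 22226 probes, or 567 of 21898 distinct genes. The symbol identified 76 probes of 75 genes, called annotated genes below, with 46 probes for the large and 30 for the small subunit. The definition alone identified the other 495 probes, which stand for predicted loci that resemble a ribosomal protein gene.

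Whole brains of Sprague Dawley rat embryos of embryonic days 17 to 18 were lysed and incubated with a rabbit polyclonal antibody against Staufen2 (6 arrays) or with preimmune antibody (6 arrays), and the recovered RNA was amplified, labelled with biotin and read on Illumina rat BeadChips. Both groups came from untreated animals of this 1 strain, and no allele or transgene is named. One tissue label gives P18 where the protocol gives embryonic days. Staufen2 arrays are numbered 0 to 5, with 0 for the one whose label carries no number, and preimmune arrays 1 to 6. The comparison is between the Staufen2 antibody and preimmune antibody on the same kind of tissue, not between tissues. Whole brain holds many cell types, so fewer cells of a type and less RNA per cell cannot be told apart in these lysates. Neuronal markers were present. Of 10 listed, 8 had a probe, and these 8 were detected on all 6 Staufen2 arrays and 4 of them on all 6 preimmune arrays.

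Staufen2 is a protein that binds double-stranded RNA and is part of the particles that carry messenger RNA into dendrites. Ribosomal protein transcripts are short, abundant and made in every cell, and each subunit is assembled from 1 copy of most of its proteins around a ribosomal RNA. In mammals their messengers typically begin with a C followed by a run of pyrimidines, the 5′ terminal oligopyrimidine (TOP) tract, through which growth signals switch their translation together. Mammalian genomes also hold many processed copies of these genes, most of which are pseudogenes.

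The preimmune arrays carried far less signal than the Staufen2 arrays, and this bears on every value below. Mean raw signal was 452 ± 63.6 (SD, n = 6) on Staufen2 arrays and 97.9 ± 22.6 (SD, n = 6) on preimmune arrays. A mean of 69.5 of the 76 annotated probes were detected on a Staufen2 array (68 to 71) and 60.8 on a preimmune array (53 to 65). Preimmune replicate 6 detected 11.6% of all probes and replicate 2 detected 17.6%, against 24.8% to 34.8% on the other preimmune arrays and 45.4% to 48.8% on Staufen2 arrays. Preimmune replicate 6 had the lowest raw preimmune signal for 66 of the 67 annotated genes that could be tested. Results are therefore given without preimmune replicates 2 and 6 as well. Precision is limited by the 6 arrays per group.

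Relative to the other transcripts on the arrays, most annotated ribosomal protein genes were lower in Staufen2 than in preimmune immunoprecipitates. Probes detected on at least 6 of 12 arrays were tested, which kept 68 annotated probes for 67 genes. After background correction and quantile normalization, which gives each array the same distribution of values, 44 of these 67 genes were lower, 3 were higher and 20 were not called (limma, adjusted p under 0.05). Of the 3 higher genes 1 was detected on no preimmune array and passed the filter through Staufen2 arrays alone. Over all 9044 tested genes 14.2% were lower and 31.4% were higher, and 821 of the 2839 higher calls were of that kind. The median log2 difference, Staufen2 minus preimmune, was -1.28 for the annotated genes and 0.083 for all tested genes. In 39 annotated genes the normalized values of the 2 groups of arrays did not overlap with Staufen2 lower, and in 3 with Staufen2 higher. The same held for 11.4% and 20.9% of all tested genes. The median normalized log2 signal of the annotated genes was 10.3 ± 0.209 (SD, n = 6) on Staufen2 arrays, from 10.00 to 10.57, and 11.9 ± 0.399 (SD, n = 6) on preimmune arrays, from 11.08 to 12.17. No Staufen2 array reached the lowest preimmune array.

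**Figure D1:**
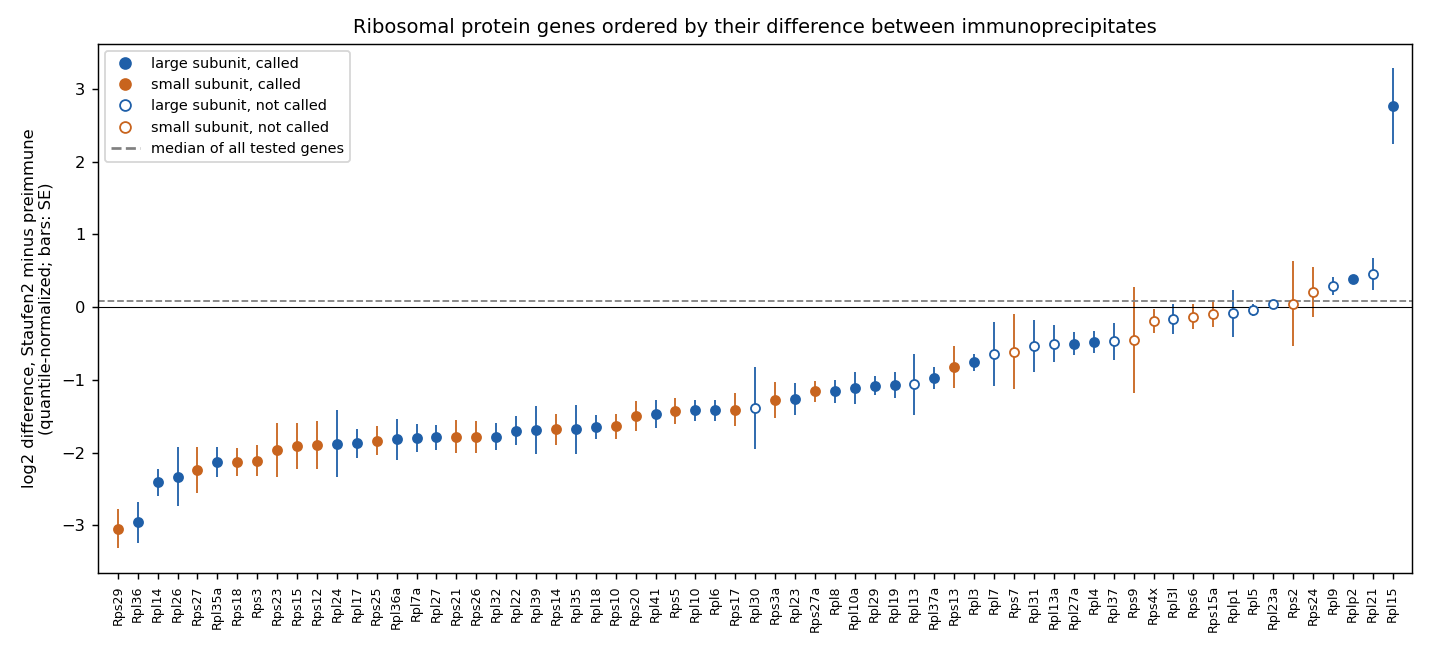
Log2 difference (Staufen2 minus preimmune, y axis, quantile-normalized values) of 65 of the 67 tested annotated ribosomal protein genes in order of the difference (x axis), with bars for the SE of the limma fit. Blue marks the large and orange the small subunit, filled points passed the test and open points did not, and the dashed line is the median of all tested genes, 0.083. The genes run from Rps29 at -3.05 to Rpl21 at 0.46, with the Rpl15 probe apart at 2.77.

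These decreases are relative and depend on how the arrays are brought to 1 scale. In raw signal the mean was higher on Staufen2 arrays for 67 of the 67 annotated genes, and for 53 of them no preimmune array reached the lowest Staufen2 array. With background correction but no scaling between arrays, 67 of 67 were higher, as were 9043 of 9044 tested genes (100% to 3 digits, with 0% lower), and the annotated median of 2.85 lay above the 2.58 of all genes. With each array centred on its median, 0 annotated genes were lower (limma, also 0 at an unadjusted p under 0.05) and 28 were higher, where 5.78% and 74.3% of all tested genes were lower and higher. The annotated median was then 0.89 and that of all genes 0.63. Thus 61 of 67 annotated genes lay below the median of all genes after quantile normalization, but 21 of 67 did with median centring or no scaling. The order of the 67 genes was partly kept between these scales (Spearman 0.59, a description over genes that share the same 12 arrays). The plot of medians by scaling shows these shifts.

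**Figure D2:**
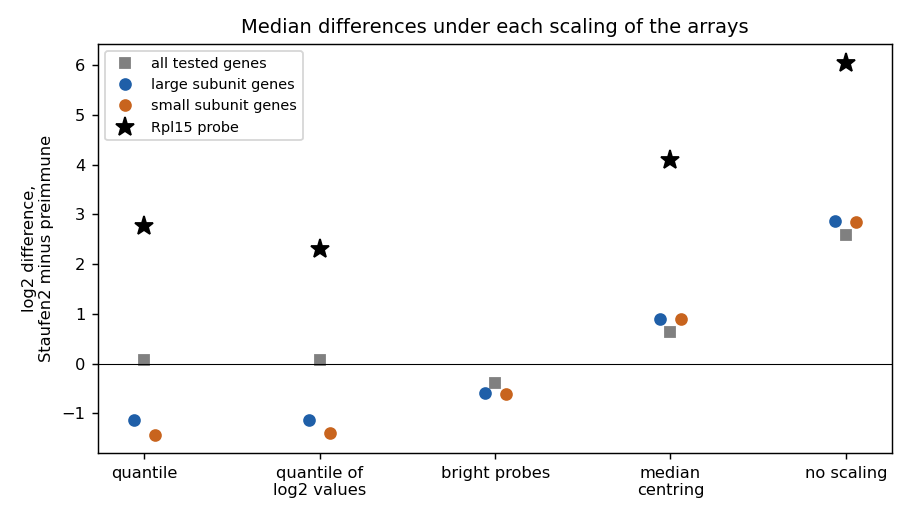
Median log2 difference (Staufen2 minus preimmune, y axis) of all tested genes (grey squares), of large subunit genes (blue) and of small subunit genes (orange), and the difference of the Rpl15 probe (star), under 5 ways of scaling the arrays (x axis). Both subunits lie below all genes with quantile normalization and with bright-probe values, and above them with median centring (0.90 and 0.89 against 0.63) or no scaling, while the Rpl15 probe lies above all of these wherever it has a value.

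Unscaled signal over background gave a comparison that needs no scaling of 1 group to the other. The lower quartile of signal on each array was subtracted as background, and the Staufen2 mean was divided by the preimmune mean. A gene whose preimmune mean was at or below background was ranked above any ratio. This applied to 1 annotated gene and to 248 of the 9044 tested genes. The ratio had a median of 5.65 over the annotated genes and 11.9 over all tested genes. Over genes whose counted probe was detected on all 12 arrays it was 4.72 for 52 annotated genes and 7.86 for all 1648. The order was thus opposite to that of the unscaled log2 differences above, where the annotated median was the higher one. At matched Staufen2 signal the annotated medians were again the smaller. Between 200 and 1000 units the median ratio was 5.65 for 15 annotated genes and 14.6 for 2812 tested genes, and 40% against 11.2% were called lower after quantile normalization. Between 1000 and 5000 units it was 4.49 for 30 annotated genes and 21.4 for 1479 tested genes, and 96.7% against 17.8% were called lower. Above 5000 units it was 9.79 for 16 annotated genes and 28.2 for 346 tested genes, and 50% against 15% were called lower. The middle range thus held the annotated genes that were called lower most often, 29 of 30. These ranges were chosen after the values were seen, and no test was run on them.

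**Figure D3:**
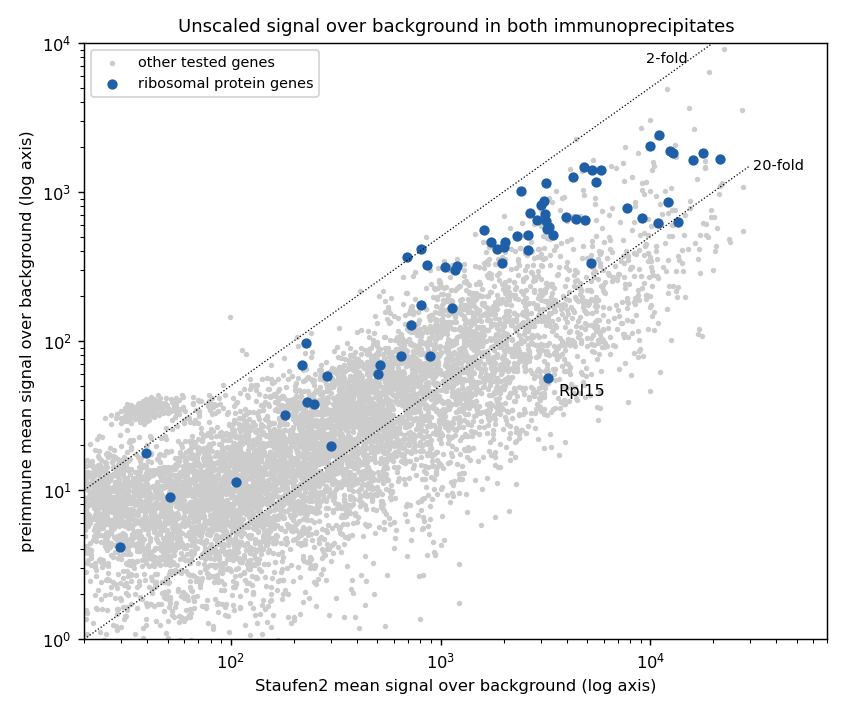
Mean unscaled signal over background on the 6 Staufen2 arrays (x axis, log scale) and on the 6 preimmune arrays (y axis, log scale) for tested genes of at least 20 units and 1 unit. Blue points are 66 annotated ribosomal protein genes, grey points the other tested genes outside the member list, and dotted lines mark Staufen2 signal 2-fold and 20-fold above preimmune signal. Most ribosomal protein genes lie along the upper edge of the cloud, with more preimmune signal than other genes of the same Staufen2 signal, and Rpl15 lies below the 20-fold line.

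Probes bright on every array gave a smaller contrast. This set required a signal above background on all 12 arrays, the weakest preimmune arrays included, so it holds genes with high preimmune signal by construction. Of 50 annotated genes in it 25 were lower and 6 higher, beside 44.5% lower and 28.6% higher among all 1114 bright genes, with medians of -0.60 and -0.38. The share of lower annotated genes was thus near that of all bright genes, although the order of the 50 differences was close to that after quantile normalization (Spearman 0.95). Among genes detected on all 12 arrays, 42 of 52 annotated genes were lower and 2 higher, beside 57% and 15.9% of all 1656 such genes. Annotated genes made up 7.21% ± 1.01 (SD, n = 6) of the signal of bright probes on Staufen2 arrays and 10.7% ± 2.53 (SD, n = 6) on preimmune arrays, and these shares overlapped between the groups.

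The lowest annotated gene was Rps29, which encodes a zinc-binding protein of the small subunit. Its raw signal was 724.5 at the lowest, 768 at the median and 867 at the highest on Staufen2 arrays, and 92.5, 400 and 810 on preimmune arrays. Staufen2 arrays were thus uniform, while the best preimmune arrays reached the same signal. After normalization Rps29 was at 8.13 to 8.94 on Staufen2 arrays and at 10.59 to 12.08 on preimmune arrays, without overlap, which gave a difference of -3.05 ± 0.27 on the log2 scale (SE over 6 arrays a group; adjusted p = 4.4e-06). Without scaling the difference was 1.42, and with median centring it was -0.53 and not called (adjusted p = 0.315). Of the summed signal over background of the tested annotated probes, Rps29 took 0.266% on Staufen2 arrays and 0.942% on preimmune arrays. These shares did not overlap (0.219% to 0.360% against 0.712% to 1.23%).

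Rpl36, a protein of the large subunit, followed at -2.96 ± 0.28 (SE; adjusted p = 7.8e-06), with raw signals of 564, 907 and 1118 against 107, 310 and 1188 (lowest, median and highest). Here the brightest preimmune array, replicate 3, exceeded each Staufen2 array in raw signal. Rps29 and Rpl36 had the smallest ratios of signal over background, 1.90 and 1.94, where 62 annotated genes with a measured ratio had quartiles of 3.78 and 7.36. On bright-probe values Rps29 was lower by -1.94 ± 0.26 (SE; adjusted p = 1.8e-06) and Rpl36 by -1.74 ± 0.26 (SE; adjusted p = 7.4e-06), so both were called lower on that scale too.

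Rpl14, of the large subunit, had raw signals of 1822, 2474 and 3056 against 142, 924 and 2302 (lowest, median and highest) and a difference of -2.41 ± 0.19 (SE; adjusted p = 2.6e-06). Rps18, of the small subunit, had 2125, 3350 and 4033 against 172, 958 and 2523 and a difference of -2.13 ± 0.19 (SE; adjusted p = 4.4e-06). Both overlapped between groups in raw signal and did not after normalization. Rpl26, Rps27, Rpl35a and Rps3, which lines the channel through which messenger RNA enters the small subunit, had differences of -2.33, -2.24, -2.13 and -2.11. These 8 genes were below -2, and 39 of the 44 lower genes were below -1. On bright-probe values Rpl14, Rps18, Rps27 and Rps3 were lower by -1.49, -1.25, -1.1 and -1.19 (adjusted p = 4.9e-05, 0.00018, 0.00328 and 0.000231). With median centring they were at 0.042, 0.30, 0.39 and 0.35.

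Among genes that did not pass the test were several of the brightest. Rps6, the small subunit protein phosphorylated by S6 kinase downstream of mTOR, had raw signals of 5332, 8964 and 12383 against 129, 599.6 and 1540 (lowest, median and highest). Each Staufen2 array exceeded each preimmune array, but the normalized values overlapped, 11.89 to 12.70 against 12 to 12.42, and the difference was -0.13 ± 0.17 (SE; adjusted p = 0.536). Rps15a, also of the small subunit, had -0.088 ± 0.19 (SE; adjusted p = 0.718). Rps4x, the X-linked form of small subunit protein S4, had -0.19 ± 0.16 (SE; adjusted p = 0.347). On bright-probe values Rps6 was higher, by 0.90 ± 0.25 (SE; adjusted p = 0.00312), so its direction depended on the scale. Of the 20 genes not called, 14 lay within 0.5 of zero, and 9 were detected on all 12 arrays.

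Rpl21 and Rpl9, both of the large subunit, lay above the other annotated genes that were not called. The raw signal of Rpl21 was 5767, 12628 and 13776 on Staufen2 arrays and 102, 447 and 1762 on preimmune arrays (lowest, median and highest), with no overlap. Its normalized values overlapped, at 11.88 to 12.84 against 11.47 to 12.53. Rpl21 and Rpl9 were at 0.46 ± 0.22 (SE; adjusted p = 0.0986) and 0.29 ± 0.12 (SE; adjusted p = 0.0708), but on bright-probe values they were higher by 1.5 ± 0.30 (SE; adjusted p = 9.3e-05) and 0.91 ± 0.24 (SE; adjusted p = 0.00175). Raw Rpl9 signal was 19133, 21924 and 23226 against 255, 1188 and 4165, with no overlap. The plot of raw signals by array sets these genes beside the lowest ones.

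**Figure D4:**
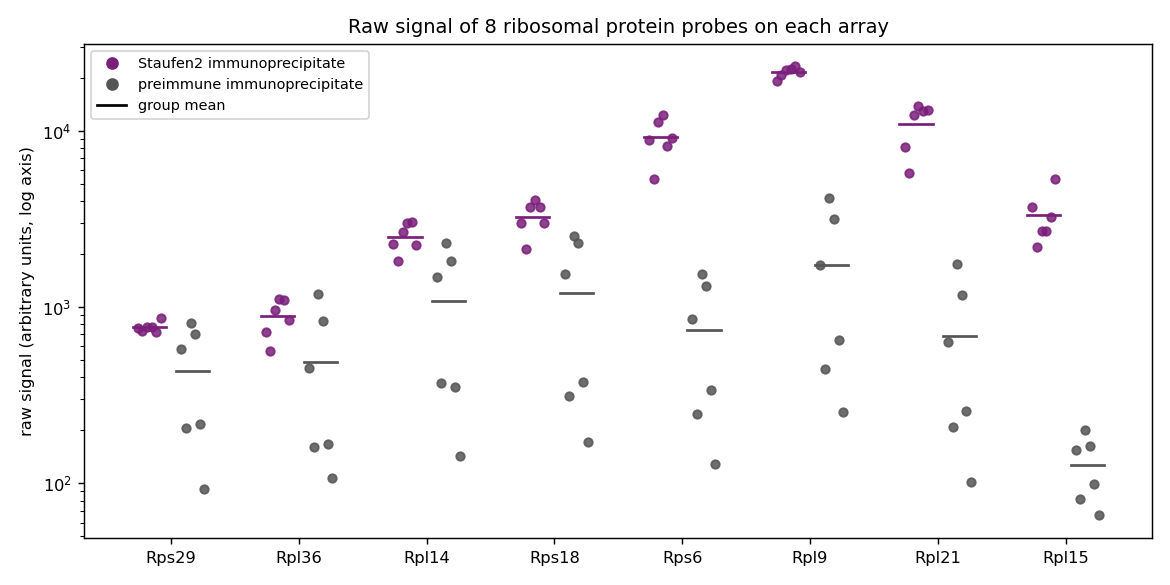
Raw signal (y axis, log scale, arbitrary units) of the probes of 8 annotated genes (x axis) on each of the 6 Staufen2 arrays (purple) and 6 preimmune arrays (grey), with a line at each group's mean. Preimmune arrays of Rps29, Rpl36, Rpl14 and Rps18 reach into the Staufen2 range, whereas those of Rps6, Rpl9, Rpl21 and Rpl15 stay below it. Levels of different probes are not comparable.

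The probe for Rpl15, a large subunit protein, stood apart from the other annotated genes, and was singled out with this known. Its raw signal was 2195, 2982 and 5349 on Staufen2 arrays and 65.8, 127 and 200.2 on preimmune arrays (lowest, median and highest), where the arrays' backgrounds were 64.1 to 78.2. It was detected on 4 of 6 preimmune arrays. The log2 difference was 2.77 ± 0.52 (SE; adjusted p = 0.000891), which is 4.05 above the annotated median, and the groups did not overlap. After normalization preimmune replicates 1, 3, 4 and 5 lay between 8.25 and 9.11, and replicates 2 and 6 at 6.38 and 6.02. Without those 2 arrays the difference was 1.91 (adjusted p = 3.4e-05), and with array weights it was 1.68 (adjusted p = 3.7e-07). It was 4.09 with median centring and 6.05 without scaling, in each case 3.20 above the annotated median. The ratio of signal over background was 57.6. Of the summed signal over background of tested annotated probes, Rpl15 took 1.22% on Staufen2 arrays (0.830% to 1.78%). On preimmune arrays it took 0.126% (0.0439% to 0.216%), and these shares did not overlap.

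The brighter of the other probes named for L15 did not share this difference. The locus LOC498143, now named Rpl15l1, had raw signals of 8896, 12726 and 15584 against 271, 1668 and 4258 (lowest, median and highest). It was lower by -0.72 ± 0.11 (SE; adjusted p = 0.000161), without overlap, which is above the annotated median of -1.28 but on the other side of zero from Rpl15. LOC364239 had -0.57 ± 0.31 (SE; adjusted p = 0.147). LOC366942 and LOC311120, with mean Staufen2 raw signals of 118 and 124, were too near background for this comparison, and the second was detected on no preimmune array. The high value of Rpl15 thus rests on 1 probe. Probe sequences were not used here, so which of these transcripts each probe binds cannot be told apart.

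Lower genes were found in both subunits. Of the 40 tested genes of the large subunit 26 were lower, 2 higher and 12 not called, with a median log2 difference of -1.14 (quartiles -1.72 and -0.49). Of the 27 of the small subunit 18 were lower, 1 higher and 8 not called, with a median of -1.43 (quartiles -1.87 and -0.32). Over all tested genes 14.2% were lower and 31.4% higher. The large subunit median was 0.29 above that of the small subunit, and 0.75 above it over annotated genes and loci together. With median centring or no scaling that second gap was -0.008, so its direction turned. On each array the median of large minus small subunit genes ran from -0.25 to 0.06 on Staufen2 arrays and from -0.67 to -0.19 on preimmune arrays, and these ranges overlapped. Large subunit probes took 56.9% ± 1.17 (SD, n = 6) of the bright member signal on Staufen2 arrays and 59.4% ± 1.84 (SD, n = 6) on preimmune arrays, again with overlap.

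Proteins of known position or form varied among themselves. In the stalk, which recruits elongation factors to the large subunit, Rplp0 (named Arbp in the file and found outside the member rule) was lower by -0.76 ± 0.15 (SE; adjusted p = 0.00103) and Rplp1 was at -0.084 ± 0.32 (SE; adjusted p = 0.841). Rplp2, detected on all 6 Staufen2 and 0 preimmune arrays with raw means of 183 and 68.1, has only a bound and was at least 1.1-fold higher. Rpl10, which joins the large subunit late in its assembly, was lower by -1.42 ± 0.14 (SE; adjusted p = 1.1e-05). Rpl39, at the exit tunnel for the growing peptide, and Rpl41, among the smallest ribosomal proteins, were lower by -1.69 ± 0.33 (SE; adjusted p = 0.0012) and -1.47 ± 0.19 (SE; adjusted p = 5.9e-05). Rpl22, Rpl7a, Rps25 and Rpl10a were lower by -1.70, -1.80, -1.84 and -1.11. On bright-probe values Rpl10a was at -0.0071 (adjusted p = 0.985), Rpl10 at -0.44 (adjusted p = 0.104) and Rpl39 at -0.62 (adjusted p = 0.0858).

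The 2 probes of Rpl36a, a large subunit protein, disagreed. The brighter had raw means of 884 and 245 and was lower by -1.82 ± 0.28 (SE; adjusted p = 0.000179). The other had 292 and 68.7, was detected on no preimmune array and was at least 1.46-fold higher. Annotated genes not tested for low detection were Rpl10l, Rpl11, Rpl12, Rpl34, Rpl38, Rps16, Rps19 and Rps28.

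Of 5 tested genes for ribosomal proteins that carry other names, 4 were lower and 0 higher (limma, also 0 at an unadjusted p under 0.05), with a median of -0.76. Among all tested genes 14.2% were lower and 31.4% higher. Fau, which fuses a ubiquitin-like protein to a ribosomal protein, was lower by -1.66 ± 0.21 (SE; adjusted p = 4.8e-05). Rps27a, an annotated member whose protein is made as a ubiquitin fusion, was lower by -1.16 ± 0.15 (SE; adjusted p = 6.5e-05). Rpsa, named Lamr1 in the file and also known as the laminin receptor, was lower by -0.57 ± 0.18 (SE; adjusted p = 0.0205) but at 0.23 on bright-probe values (adjusted p = 0.49). Rack1, the scaffold protein on the head of the small subunit, was at -0.27 ± 0.14 (SE; adjusted p = 0.136) and higher on bright-probe values, by 0.74 ± 0.22 (SE; adjusted p = 0.00489).

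Of the 495 probes for predicted loci 253 were detected on no array and 135 on all 6 Staufen2 arrays, and 149 could be tested. The current RefSeq gene table lists 81 of these loci as protein coding and 88 as pseudogenes, and 326 found no match there. Over the 148 tested loci 69 were lower, 16 were higher and 63 were not called, with a median log2 difference of -0.65. The groups of arrays did not overlap in 53 loci with Staufen2 lower and in 11 with Staufen2 higher. Among all tested genes 14.2% were lower and 31.4% higher, and the groups did not overlap in 11.4% and 20.9%. Of the 16 higher loci 8 were detected on no preimmune array and have only a bound, which was above zero for 3 and not for the other 5, so that a rise was measured or bounded in 11. Among all tested genes 350 of the 2839 higher calls had such a bound at or below zero, and 27.5% of genes were higher without them. Together with the annotated genes this made 113 of 215 lower and 19 higher, with a median of -0.82. Without any 1 of the Staufen2 arrays, when fewer probes were tested, 7 to 10 were higher, beside 22.6% to 24.2% of all tested genes. Without preimmune replicates 2 and 6 it was 138 lower and 20 higher of 213 genes. Lower calls also rose among all tested genes then, to 25.3%, with 31.2% higher.

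Loci were also set beside the annotated gene of the same protein. For 22 proteins both the annotated gene and at least 1 locus were detected on all 12 arrays, and their differences had a Pearson correlation of 0.59 and a Spearman correlation of 0.45, a description over proteins measured on the same arrays. Since a probe may bind both a gene and its copies, these values are not independent. Some of the locus values also came from probes near background, which the correlations include. The L36a locus LOC501876, for example, was at -2.47 with raw medians of 135 against 108. Among proteins with at least 3 tested loci, S19 had the lowest locus median. The annotated Rps19 was not detected well enough to test. Of 7 tested S19 loci 6 were lower, with a median of -2.49, where 14.2% of all tested genes were lower. Of the S19 loci, 4 were detected on at least 4 preimmune arrays with a ratio of signal over background above 1.8. All 4 were lower, with a median of -2.6. The lowest pair, LOC500885 (now Rps19l1) and LOC501980, were at -2.82 ± 0.31 (SE; adjusted p = 2.0e-05) and -2.62 ± 0.33 (SE; adjusted p = 4.2e-05), with raw medians of 874 against 329 and 1208 against 422. The S18 locus LOC314556 (now Rps18l3) was at -2.83 ± 0.28 (SE; adjusted p = 9.7e-06), below Rps18 itself.

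L21 and L9 loci included genes that were higher. Of the 39 L21 locus probes 18 were tested, and 16 of these were detected on at least 1 preimmune array. Of the 16, 4 were higher (limma), where 31.4% of all tested genes were higher, so L21 loci were not called more often than other genes. In sign, 15 were above zero and the other was at -0.15, with a median of 0.39 beside 0.46 for Rpl21. The 4 were among 12 loci detected on at least 4 preimmune arrays with a ratio of signal over background above 1.8. These 12 ran from 0.098 to 1.5, with a median of 0.47. LOC295941 was higher by 1.41 ± 0.32 (SE; adjusted p = 0.00306), with raw signals of 1736, 3785 and 5195 against 75.4, 143 and 352 (lowest, median and highest). LOC294700 was higher by 1.5 ± 0.51 (SE; adjusted p = 0.0285), was detected on 4 preimmune arrays, and lost its call within the first code run (1.02, adjusted p = 0.16) and without preimmune replicates 2 and 6 (0.85, adjusted p = 0.0854). Among L9 probes LOC502629 was higher by 1.08 ± 0.12 (SE; adjusted p = 1.7e-05) with no overlap, and by 1.92 ± 0.25 on bright-probe values (SE; adjusted p = 9.5e-07). LOC314434, also L9, was detected on no preimmune array and was at least 2.90-fold higher.

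L7a, with 50 loci, was the largest group. Of 19 tested loci 9 were lower and 1 was higher, beside 14.2% and 31.4% of all tested genes. Among the 9 that were detected on at least 4 preimmune arrays with a ratio of signal over background above 1.8, 7 were lower (limma), with values from -2.27 to 0.59, and the median was -1.65 beside -1.80 for Rpl7a. The higher one, LOC361590, was detected on no preimmune array and was at least 3.67-fold higher. RGD1309784, whose current name is Rsl24d1 and which is known as a ribosome assembly factor rather than a ribosomal protein, was higher by 1.86 ± 0.23 (SE; adjusted p = 3.9e-05) and was detected on 2 preimmune arrays. The plot of probes by protein shows these groups.

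**Figure D5:**
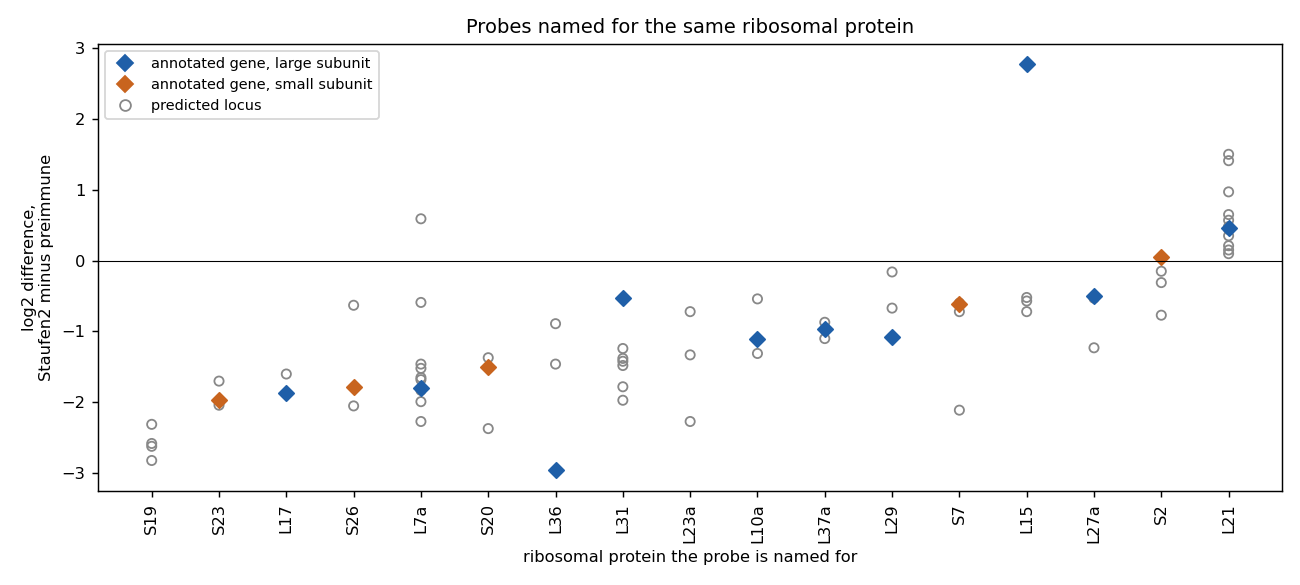
Log2 difference (Staufen2 minus preimmune, y axis, quantile-normalized values) of tested probes grouped by the ribosomal protein they are named for (x axis), for the 17 proteins with at least 3 probes that were detected on at least 4 preimmune arrays and had a ratio of signal over background above 1.8. Diamonds are annotated genes (blue large, orange small subunit) and open circles predicted loci. The S19 probes have the lowest median of the proteins drawn, the L21 probes drawn lie above zero, and the annotated L15 probe lies far above the L15 loci.

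Some low locus values came from probes near background. Of 52 locus probes that were called lower and detected on all 12 arrays, 9 had a ratio of signal over background under 1.8 (0.904 to 1.66), with raw means of 116 to 139 on Staufen2 arrays and 106 to 109 on preimmune arrays. LOC503032, named for L31, was among them. Its raw signal was 106, 116 and 128 against 100.2, 108 and 122 (lowest, median and highest), nearly the same in both groups, yet its normalized preimmune values spread from 7.02 to 11.44, the highest on replicate 6, the array with the least signal, and gave a difference of -2.63 ± 0.64 (SE; adjusted p = 0.00485), with 1.32 without scaling.

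The start of the ribosomal protein transcripts was read from RefSeq promoter sequences of build GRCr8, to show the shared element that these genes are known for. Of the 75 annotated genes 61 had an entry. In the 30 bases from 10 before to 20 after the annotated start, CTTTC occurred on the gene's strand in 24 of 61 members (39.3%) and in 3.41% of 27457 promoters, and on the other strand in 1 of 61 (1.64%) and 3.78%. CTTCC occurred in 20 of 61 (32.8%) and in 5.73% of promoters, and on the other strand in 3.28% and 6.97%. The motifs may overlap. At least 1 of them stood on the gene's strand in 35 of 61 members (57.4%) and in 8.86% of promoters. Among members with an entry that were lower it stood in 22 of 36 (61.1%), and among those not called in 10 of 16 (62.5%), close to each other, with no test run. The windows below show lower members with and without the motifs and members that were not called, with CTTTC and CTTCC in capitals.
Rps27, lower by -2.24, chr2:177964587-177964616, minus strand: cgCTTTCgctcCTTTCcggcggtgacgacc
Rpl35a, lower by -2.13, chr11:81235002-81235031, minus strand: tcttgcCTTCCtCTTTCcgccatcttggcg
Rps18, lower by -2.13, chr20:4933735-4933764, plus strand: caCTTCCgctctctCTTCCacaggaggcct
Rpl36, lower by -2.96, chr9:1533770-1533799, plus strand: cggccgccatcggaaagctgcaggtaagtc
Rpl14, lower by -2.41, chr8:129163610-129163639, plus strand: ggccctctcccttctcgctgagcgccgcca
Rps15a, not called at -0.088, chr1:181860265-181860294, minus strand: ttttCTTTCcacagtcaccatggtgcgaat
Rplp1, not called at -0.084, chr8:71290853-71290882, minus strand: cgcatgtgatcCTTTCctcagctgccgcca
Rpl9, not called at 0.29, chr14:43247580-43247609, plus strand: aggacgttctctctttgccccatctactgc
A match is a description of these letters, and an annotated start may lie some bases from the start used in brain. Pyrimidine runs that spell neither motif, as in the windows of Rpl14 and Rpl9, were not counted. The shares above are therefore not shares of genes with a TOP tract. Rps29 and Rpl15 are named without a sequence.

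Other transcripts known to carry a TOP tract were mixed. Of 16 tested genes 5 were lower and 4 higher, beside 14.2% and 31.4% of all tested genes, and the median was -0.24. On bright-probe values 1 of 9 was lower and 5 were higher, with a median of 0.72, beside 44.5% and 28.6% of bright genes and a median of -0.38. Tpt1 and the elongation factor genes Eef1a1 and Eef1b2 were lower by -1.33, -0.99 and -0.96, whereas Eef1g, another elongation factor subunit, Naca, of the nascent polypeptide complex, and the initiation factor gene Eif4b were higher by 1.86, 1.61 and 1.56. On bright-probe values Eef1b2 was at 0.13 (adjusted p = 0.64). Of 33 tested ribosome biogenesis factors 6 were lower and 4 higher, with a median of -0.36, and the share of lower genes was near the 14.2% of all tested genes. Nucleolin (Ncl), the abundant nucleolar protein, was lower by -2.74 ± 0.31 (SE; adjusted p = 2.4e-05). Of 60 tested mitochondrial ribosomal protein genes 15 were lower and 15 higher, with a median of -0.27, so a larger share of cytosolic than of mitochondrial ribosomal protein genes was lower, a difference for which no test was run.

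Markers of other cells moved as follows, and their part in these results was not tested. Of 5 tested red blood cell markers 4 were lower, but Slc4a1, Kel and Epb42 among them had raw means of 122 to 140 against 106, and of the globin genes Hba-a1 was lower by -1.11 ± 0.32 (SE; adjusted p = 0.0131). The summed signal over background of the red blood cell list was 9870 to 32400 on Staufen2 arrays and 340 to 16700 on preimmune arrays. Of 8 tested progenitor markers 2 were lower, and of 8 neuronal markers 2 were lower and 3 higher. Beside all of these counts, 14.2% of all tested genes were lower and 31.4% were higher. Alas2 was detected on 4 Staufen2 and 0 preimmune arrays.

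The codes heading the detection columns form 2 runs, of 4 and of 2 arrays per group, and what the runs are is not given in the labels. Within the first run 47 of 65 annotated genes were lower and 2 higher, beside 20.5% and 23.8% of all tested genes, with a median of -1.48. Within the second run limma made 0 calls over all genes, and 27 annotated genes were lower and 5 higher at an unadjusted p under 0.05, with a median of -1.01 over 66 genes, beside 6.93% and 25.7% of all 9827 genes tested in that run. Rpl15 was at 2.27 in the first run and 3.78 in the second, and Rps29 at -3.33 and -2.54. Without preimmune replicates 2 and 6, 47 of 67 annotated genes were lower and 3 higher, beside 25.3% and 31.2% of all tested genes.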

How the data were processed

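The authors deposited a table of raw signal intensity and detection p-value per probe and array, and a table of log2 values. The deposited log2 values equalled the log2 of the raw signal within 5.5e-06. The submitters' processing notes name RMA without a version. The detection columns carry codes as headers and were assigned to the neighbouring signal column. This was checked by sorting probes on signal: at most 268 adjacent probes were out of order in the assigned column, and at least 6744 in any other. Bead standard errors (12 columns) were left out.

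Signals were corrected with limma's normexp model from detection p-values (offset 16), quantile normalized and converted to log2. Probes detected (p under 0.05) on 6 or more arrays, 9136 probes for 9044 genes, were compared with limma 3.58.1 (R 4.3.3). The fit used lmFit, then eBayes with its trend option, and two-sided p-values were adjusted by Benjamini-Hochberg over these probes, with a threshold of 0.05. Differences are Staufen2 minus preimmune. Counts of genes use the probe with the highest mean where a gene has several. Bright-probe values are the log2 of raw signal minus the array's lower quartile, over 1140 probes at least 15 units above it with a detection p-value under 0.01 on all 12 arrays, centred on each array's median. A probe detected on no preimmune array has only a bound, the Staufen2 mean against the higher of the lowest normalized value of a detected probe and its own value. Such a probe passed the detection filter through its Staufen2 arrays alone, so its p-value is not given, although its call is counted. Array weights, other offsets and filters and arrays left out were tried as alternatives. The pipeline was run on simulated data, with pass conditions set only for arrays of equal yield. The arrays here differ in yield, so that test does not check their scaling.

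Members and lists were chosen with earlier results of these data known. Named genes were the 6 lowest and 6 highest tested members, genes with 2 tested probes that disagreed, and a list of proteins of known role. Rpl26, Rpl35a, Rps15a, Rpl9, Rpl21, LOC502629 and the L15 loci were named after their values were seen. Arrays are taken as replicates. The labels do not say which brains each array came from, so p-values measure the spread between arrays, part of which may be technical. Symbols were updated through a RefSeq gene table of assembly GRCr8. Values of a few single genes are counted but not given.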

Additional observations from a re-analysis of the deposited data

Results flagged for a closer look

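Among 70 groups of 6 arrays, 1 array stood far from the other 5 in 10 groups by Dixon's ratio, where chance flags about 1 in 20. In 8 of the 10 the array was preimmune replicate 5, with low normalized log2 signals. It was at 10.21 for LOC500885 (others 11.41 to 11.76), 12.79 for Rps4x (13.26 to 13.39), 12 for Rps6 (12.36 to 12.42), 12.38 for Rpl41 (12.99 to 13.26), 10.02 for Rplp1 (11.48 to 12.18), 11.79 for Rps25 (12.43 to 12.78) and 9.26 for Rpl36a (10.45 to 10.93). The median of annotated genes on that array was 11.08, where the other preimmune arrays had 11.78 to 12.17. Preimmune replicate 5 had the lowest normalized preimmune value for 45 of 67 annotated genes. For LOC314434 preimmune replicate 6 stood high, at 6.54 against 5.97 to 5.99. The large minus small subunit median was 0.06 on Staufen2 replicate 0 and -0.25 to -0.16 on the other Staufen2 arrays.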

How the results depend on the processing

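Preimmune arrays near background limit what depth allows, and scaling was the choice that changed most. Over annotated genes and loci together, 113 of 215 genes were lower and 19 higher, with a median of -0.82 and a large minus small subunit gap of 0.75. With median centring these were 15, 81, 0.47 and -0.008, and without scaling 0, 215, 2.42 and -0.008. Without a detection filter the median and gap were -0.059 and 0.023. Over probes detected on all 12 arrays 7 were higher and the values were -1.63 and 0.34. Within the first code run 7 were higher, with a median of -1.31, and the second run, added after seeing the data, gave 0 lower and 0 higher. Bright-probe values gave 59 lower and a gap of 0.24. The symbol rule alone gave 44 lower, 3 higher, -1.28 and 0.29. With 1 array left out, 101 to 125 genes were lower and 7 to 22 higher, the median ran from -1.15 to -0.81 and the gap from 0.50 to 0.82. The fewest higher calls, 7, came without Staufen2 replicate 2 or 3, and 9 to 10 came without another Staufen2 array, when fewer probes passed the filter. Of all tested genes, 13.1% to 19.6% were lower and 22.6% to 32.7% higher with 1 array left out. The cause of the other changes was not tested.

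The sign of named genes turned most often without scaling, with log2 differences of 1.42 for Rps29, 1.66 for Rpl36, 1.48 for LOC314556, 1.77 for LOC500885, 1.32 for LOC503032, 1.89 for LOC501980, 3.98 for Rps4x, 2.84 for Rplp0, 4.4 for Rps6, 3.74 for Rpsa, 2.84 for Rpl41, 3.37 for Rps27a, 4.53 for Rplp1, 3.06 for Rpl10, 2.25 for Rps18, 2.6 for Rps25, 3.45 for Rpl10a, 2.85 for Rpl22, 2.00 for Rpl14, 2.31 for Rps3, 2.34 for Rps27, 2.79 for Rpl39, 2.8 for Rpl7a and 2.65 for Rpl36a. With median centring they were 2.02 for Rps4x, 0.88 for Rplp0, 2.44 for Rps6, 1.79 for Rpsa, 0.89 for Rpl41, 1.41 for Rps27a, 2.57 for Rplp1, 1.11 for Rpl10, 0.3 for Rps18, 0.65 for Rps25, 1.49 for Rpl10a, 0.89 for Rpl22, 0.042 for Rpl14, 0.35 for Rps3, 0.39 for Rps27, 0.84 for Rpl39, 0.85 for Rpl7a and 0.7 for Rpl36a. On bright-probe values they were 0.45 for Rps4x, 0.9 for Rps6, 0.23 for Rpsa and 1.03 for Rplp1, and with array weights 0.033 for Rps4x, 0.17 for Rps6 and 0.21 for Rplp1. Rplp1, at -0.084, was also at 0.17 without preimmune replicates 2 and 6, 0.29 in the second code run, 0.0088 without Staufen2 replicate 0 and 0.059 without preimmune replicate 2, in a range from -0.37 (without preimmune replicate 5).

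Replicate numbers 1 to 5 occur in both groups, and the correlations of same-numbered deviations were 0.26, 0.051, 0.22, -0.12 and 0.30. These values alone do not settle whether the numbers pair the arrays, and the main fit left the arrays unpaired. The replicate block was fitted on replicates 1 to 5 alone, without Staufen2 replicate 0 and preimmune replicate 6. With it 118 of 197 genes were lower and 10 higher, with a median of -1.05 and a gap of 0.47, and Rplp1 was at 0.065. Of all 7656 genes tested there 19.5% were lower and 22.4% higher. Without Staufen2 replicate 0 and with no block, 101 of 197 were lower and 10 higher, with a median of -1.04. The effect of the block was not separated from that of the arrays left out.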
